A study of Mus musculus with 16 samples.

Results

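The cyclic nucleotide phosphodiesterases described here were 10 genes, Pde1a, Pde1c, Pde2a, Pde3a, Pde3b, Pde4b, Pde4d, Pde5a, Pde7a and Pde9a. They were found in the table of normalized counts by the Ensembl identifiers that map to these symbols, and took 11 of its 22372 rows, because Pde4d had 2. All 11 rows passed the filter on low values. The RNA came from pieces of heart ventricle of male C57BL/6J mice that were 10 to 12 weeks old when the experiment began. Transverse aortic constriction (TAC) narrows the aortic arch with a suture and loads the left ventricle with pressure, and sham mice had the same surgery without the constriction. THZ1, a covalent inhibitor of the transcription kinases CDK7, CDK12 and CDK13, was given by intraperitoneal injection, 2 times daily at 10 mg/kg, over postoperative days 1 to 60, and the other mice received its vehicle. This dose schedule and the age are those of the labels, and the study's methods give both somewhat differently. This gave 4 groups of 4 replicate libraries, namely Sham-Veh, TAC-Veh, Sham-THZ1 and TAC-THZ1. The pieces hold every cell type of the ventricle, and THZ1 was given to the whole animal. The labels number the libraries without naming the animals, so the p-values measure only the spread between libraries, which may be in part technical.

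Cyclic AMP and cyclic GMP are made by adenylyl and guanylyl cyclases and broken down by phosphodiesterases, which set how far and how long each signal lasts in a cell. In the heart, cyclic AMP made after beta-adrenergic stimulation activates protein kinase A and raises the force and rate of contraction, whereas cyclic GMP, made in response to nitric oxide or natriuretic peptides, activates protein kinase G. The families differ in substrate and control. PDE1 enzymes are switched on by calcium and calmodulin, PDE2 is stimulated and PDE3 inhibited by cyclic GMP, PDE4 and PDE7 act on cyclic AMP, and PDE5 and PDE9 act on cyclic GMP. Several are drug targets, among them PDE3 for inotropic drugs and PDE5 for sildenafil.

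The table held 21431703 to 35812869 reads per library, as recovered from the normalized counts, and single rows of the phosphodiesterases rested on 58 to 2193 reads per library. Mitochondrial genes took 33.2% to 44.7% of the reads. The 6 cardiomyocyte markers (Myh6, Myh7, Tnnt2, Actc1, Ryr2 and Myl2) summed to 1094570 to 1171410 normalized counts in Sham-Veh, 1116060 to 1166670 in Sham-THZ1, 643192 to 917496 in TAC-Veh and 967448 to 1183540 in TAC-THZ1. The ventricular gene Myl2 is among them, and of the 4 atrial markers (Myl7, Myl4, Sln and Bmp10) 3 were below the filter, with a sum of 28.1 to 39.1 normalized counts in Sham-Veh and 39.2 to 82.3 in TAC-Veh. In bulk tissue, fewer cells of a type and less RNA per cell cannot be told apart.

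Among the phosphodiesterases of the Sham-Veh ventricle, Pde2a had the highest level per length and, by merged exons, Pde5a the lowest of the 10 genes. Levels between genes were compared as normalized counts per kb of merged exons, with both Pde4d rows joined. Pde2a stood at 373 ± 4.63 per kb (SD, n = 4), followed by Pde3a at 205 ± 29.5, Pde7a at 148 ± 12.1 and Pde1c at 114 ± 6.04. Pde4b (67.7 ± 5.98 per kb) and Pde4d (61.6 ± 4.77 per kb) came next. The low end was formed by Pde9a (31.4 ± 2.41 per kb), Pde1a (28.8 ± 1.205 per kb), Pde3b (21.2 ± 1.57 per kb) and Pde5a (17.4 ± 1.904 per kb). In this order of 10, the library ranges of Pde4b and Pde4d, of Pde9a and Pde1a, and of Pde3b and Pde5a overlapped, and those of all other neighbours did not. With the longest transcript as the length, Pde3b was lowest at 22.3 per kb, below Pde5a at 22.9, and Pde4b at 166 moved just above Pde1c at 165.

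Together with 11 other genes of the enzyme family, the level per length summed to 1612 ± 48.4 in Sham-Veh, of which the 10 genes made up 66.3% ± 1.09 (SD, n = 4). Pde2a alone took 23.2% of the sum, Pde3a 12.7%, Pde7a 9.16% and Pde1c 7.09%. Pde4a, outside the 10, had the second highest level at 243 ± 19.9 per kb and Pde8a the fifth at 136 ± 4.801. These places rest on merged exons. With the longest transcript as the length, the Sham-Veh means of Pde2a and Pde4a were close, at 412 and 400 per kb. Pde8a, at 145, then stood below Pde4b at 166 and Pde1c at 165. In TAC-Veh the sum was 1348 ± 107, in Sham-THZ1 1674 ± 35.1 and in TAC-THZ1 1396 ± 16.4. The libraries of both TAC groups lay below those of both sham groups in this sum, for which no test was run. In TAC-Veh, Pde9a at 55.8 ± 12.4 and Pde1a at 55.7 ± 9.28 per kb stood above Pde4d at 34.7 ± 5.01 in every library, the reverse of their order in Sham-Veh, which is a description with no test between genes. This reversal was not seen with the longest transcript as the length, where the TAC-Veh means were 79.2 for Pde4d, 78.9 for Pde1a and 76.6 for Pde9a. Exon lengths rest on all annotated isoforms, and with the longest transcript as the length Pde4b and Pde4d gained share (7.55% and 6.39%, against 4.204% and 3.82% with merged exons).

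**Figure D1:**
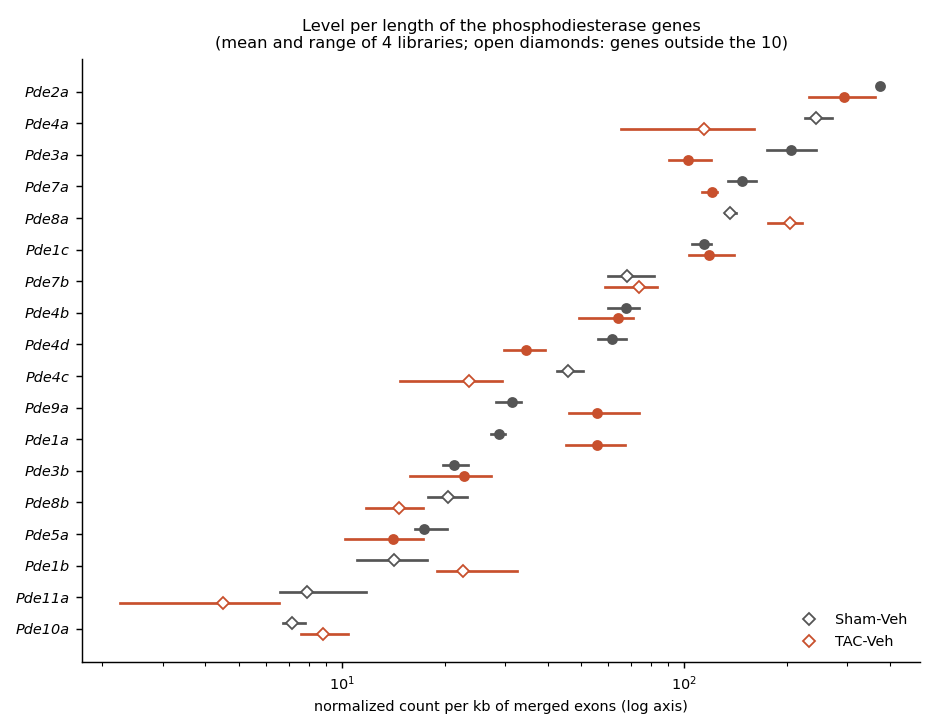
Normalized count per kb of merged exons (log axis) for 18 phosphodiesterase genes in Sham-Veh (grey) and TAC-Veh (orange), with points as means and lines as the range of 4 libraries; open diamonds mark genes outside the 10. Pde2a led in both groups, at 373 and 293 per kb, while Pde1a and Pde9a stood further right in TAC-Veh and Pde3a and Pde4d further left.

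Promoter sequence could be read for 6 of the 10 genes (Pde1a, Pde1c, Pde2a, Pde4b, Pde4d and Pde5a) as 18 RefSeq windows from 250 bases before to 50 after a start site (build GRCm38.p6), and not for Pde3a, Pde3b, Pde7a and Pde9a. They were searched for the core of the cyclic AMP response element, TGACG or its reverse complement CGTCA, which is read by the CREB family of factors that protein kinase A phosphorylates. It occurred in 3 of the 18 windows, 1 each of Pde1a, Pde2a and Pde4b, and in 20.8% of all 32851 RefSeq windows of this length. The AP-1 motif TGANTCA occurred in 1 of the 18, a Pde1c window, against 7.81% of all windows, and the NFAT core GGAAA or TTTCC in 11 of 18, against 61.3%. All were searched on both strands, and TGACG and TGANTCA share their first 3 letters without either containing the other. The 3 windows with the core, in capitals, and the Pde4d window, which has none, are shown because each of these genes changed in a comparison below. Each matched the mm9 genome, the build of the count table, exactly once and lay within the annotated span of its gene, at chr2:79879010-79879309 (minus strand) for Pde1a, chr7:108598784-108599083 (plus strand) for Pde2a, chr4:102093910-102094209 (plus strand) for Pde4b and chr13:109444121-109444420 (plus strand) for Pde4d.
Pde1a: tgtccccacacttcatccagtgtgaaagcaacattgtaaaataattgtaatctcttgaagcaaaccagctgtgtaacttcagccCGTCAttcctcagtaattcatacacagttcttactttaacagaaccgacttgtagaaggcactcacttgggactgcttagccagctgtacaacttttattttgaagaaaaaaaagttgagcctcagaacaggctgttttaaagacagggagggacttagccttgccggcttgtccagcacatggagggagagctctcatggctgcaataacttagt
Pde2a: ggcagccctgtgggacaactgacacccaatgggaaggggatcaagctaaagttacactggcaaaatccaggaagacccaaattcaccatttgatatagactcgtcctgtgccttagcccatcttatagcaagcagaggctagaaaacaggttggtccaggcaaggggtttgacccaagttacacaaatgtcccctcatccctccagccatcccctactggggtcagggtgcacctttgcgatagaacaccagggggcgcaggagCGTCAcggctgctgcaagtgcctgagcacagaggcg
Pde4b: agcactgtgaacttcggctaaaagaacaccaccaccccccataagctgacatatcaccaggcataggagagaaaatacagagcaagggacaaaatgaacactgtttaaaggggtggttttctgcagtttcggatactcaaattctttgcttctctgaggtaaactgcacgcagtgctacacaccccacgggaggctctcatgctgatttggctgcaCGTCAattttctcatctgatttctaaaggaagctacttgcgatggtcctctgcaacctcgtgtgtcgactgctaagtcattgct
Pde4d: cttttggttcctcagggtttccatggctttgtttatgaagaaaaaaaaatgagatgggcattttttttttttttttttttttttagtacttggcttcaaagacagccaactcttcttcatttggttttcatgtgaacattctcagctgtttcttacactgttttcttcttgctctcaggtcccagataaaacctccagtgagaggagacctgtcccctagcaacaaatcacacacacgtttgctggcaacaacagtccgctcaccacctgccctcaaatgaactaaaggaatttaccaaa
The core began 166 bases before the start site in Pde1a, 34 bases before it in Pde4b and 14 bases after it in Pde2a. Which start sites these ventricles used cannot be read from counts per gene.

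Pressure overload under vehicle was compared with sham to ask which phosphodiesterases move with heart failure. With TAC, Pde1a and Pde9a rose, and Pde3a, both Pde4d rows, Pde2a and Pde7a fell, while Pde1c, Pde3b, Pde4b and Pde5a did not pass the test. By limma on log2(normalized count + 1), with p-values adjusted over 13331 genes, 2 of 11 rows were higher and 5 lower at an adjusted p under 0.05, where 21.4% of all tested genes were higher and 23.6% lower. The median log2 fold change of the 11 rows was -0.29, beside -0.0030 for all tested genes. None of the 11 rows passed the fold threshold of the study as well, a log2 change of 1, which 4.64% of tested genes passed upward and 3.37% downward. Pde3a came nearest, at -0.996.

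THZ1 was then compared with vehicle in the TAC hearts. Pde9a, Pde1a, Pde3b and Pde4b fell, and the downstream Pde4d row and Pde3a rose. This was 4 rows lower and 2 higher of 11, with 14.2% of tested genes lower and 15.1% higher, and a median log2 fold change of -0.11 beside 0.015 for all tested genes. None passed the study's fold threshold for this comparison, a log2 change of 0.89, which 1.85% of tested genes passed upward and 3.62% downward, and Pde9a came nearest at -0.88. By the interaction term, the THZ1 changes of Pde1a and Pde9a in TAC hearts were unlike those in sham hearts, a term that 5.62% of tested genes passed downward and 4.4% upward. TAC-Veh is the tested group of the first comparison and the reference of the second, so an opposite sign in both is no independent result, and each comparison is given with its own values. Of the 6 changes with THZ1, those of Pde1a, Pde9a and the downstream Pde4d row held in every alternative tried at an adjusted p under 0.05, and those of Pde3a, Pde3b and Pde4b did not. Leaving out a single library gave 3 to 6 called rows, with 3 without TAC-Veh replicate 1 or 2 or TAC-THZ1 replicate 1 or 2, and the interaction gave 2 to 4, with 4 without TAC-Veh replicate 3.

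**Figure D2:**
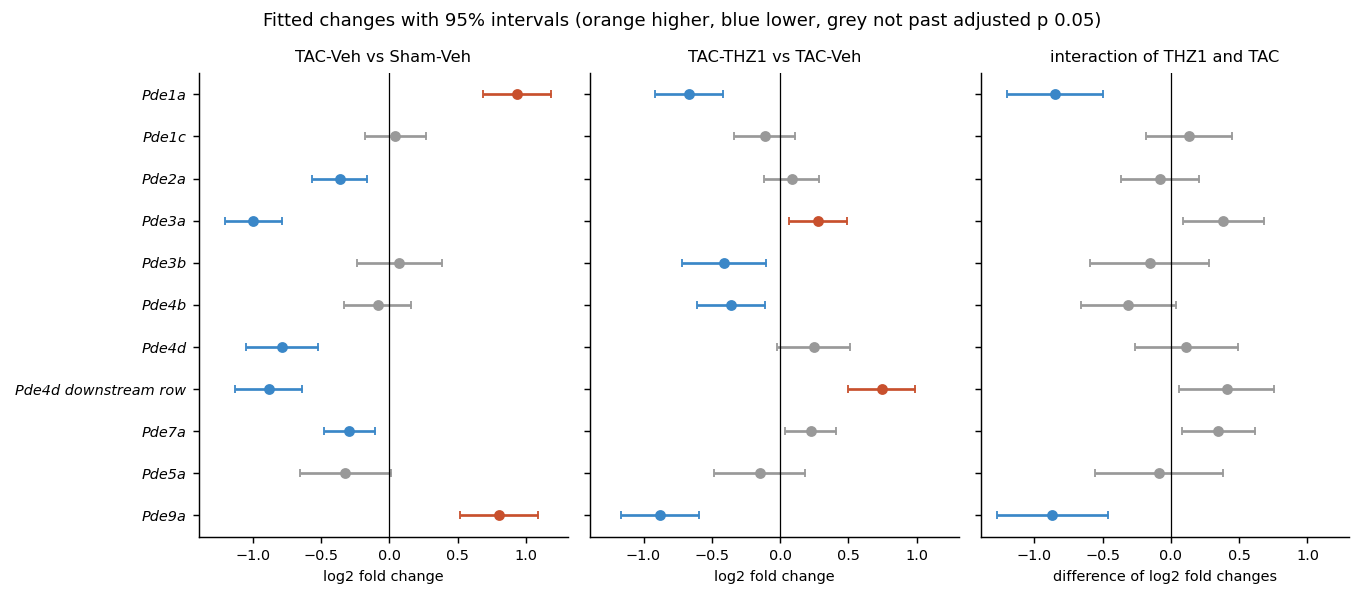
Log2 fold change on the log2(normalized count + 1) scale (points) with 95% intervals (lines) for the 11 rows in TAC-Veh vs Sham-Veh, in TAC-THZ1 vs TAC-Veh and in the interaction of both; orange is higher and blue lower at an adjusted p under 0.05, and grey did not pass. Pde1a (0.94 and -0.67) and Pde9a (0.80 and -0.88) moved up with TAC and down with THZ1, and both carry an interaction below 0.

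Pde1a encodes a calcium- and calmodulin-activated enzyme that breaks down both cyclic nucleotides, and lies at mm9 chr2:79674610-79969632 on the minus strand (ENSMUSG00000059173.10). Its normalized counts were 181, 176, 164 and 171 in Sham-Veh, 196, 199, 204 and 187 in Sham-THZ1, 406, 347, 319 and 272 in TAC-Veh and 258, 179, 212 and 193 in TAC-THZ1. All 4 TAC-Veh libraries lay above every library of the other 3 groups, and those of TAC-THZ1 ranged from the sham levels to replicate 1, just under the TAC-Veh range. Each Sham-THZ1 library was also above each Sham-Veh library. The group means were 173 ± 7.26, 197 ± 7.07, 336 ± 55.9 and 210.4 ± 34.2 (SD, n = 4) in that order. The rise with TAC was 1.91-fold (log2 fold change 0.94, SE 0.12, adjusted p = 1.32e-05), and with THZ1 in TAC the gene fell by 37.2% (-0.67, SE 0.12, adjusted p = 0.000776). THZ1 in sham gave 0.18, SE 0.12, adjusted p = 0.823, and the difference between the THZ1 effects was -0.85, SE 0.17, adjusted p = 0.0067. TAC-THZ1 and Sham-THZ1, neighbours in the order of levels, differed by 0.085 with a 95% interval of -0.16 to 0.33.

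Pde9a encodes a cyclic GMP-specific enzyme linked to the natriuretic peptide arm of that signal, and lies at chr17:31523179-31613255 on the plus strand (ENSMUSG00000041119.5). Its normalized counts were 86.98, 80.2, 94.6 and 94.2 in Sham-Veh, 89.5, 89.9, 77.5 and 97.3 in Sham-THZ1, 131, 209, 154 and 139.7 in TAC-Veh and 76.4, 82.7, 83.00 and 95.99 in TAC-THZ1. The 4 TAC-Veh libraries stood above all 12 others, which shared one range, and replicate 2 of TAC-Veh was the highest. The rise with TAC was 1.74-fold (0.80, SE 0.14, adjusted p = 0.000187). With THZ1 in TAC the count fell by 45.5% (-0.88, SE 0.14, adjusted p = 0.000311), to a mean of 84.5 ± 8.21 (SD, n = 4). THZ1 in sham gave -0.0093 (95% interval -0.29 to 0.28), and the interaction was -0.87, SE 0.19, adjusted p = 0.0121. TAC-THZ1 and Sham-THZ1 differed by -0.066 (95% interval -0.35 to 0.22), which did not pass the test.

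Beside these rises, the 6 fibroblast markers (Col1a1, Dcn, Pdgfra, Tcf21, Lum and Postn) summed to 19367 to 21729 normalized counts in Sham-Veh, 19412 to 20911 in Sham-THZ1, 55673 to 112209 in TAC-Veh and 24208 to 36585 in TAC-THZ1. Within the fibroblast sum, Postn ranged over 1141 to 1721 in Sham-Veh and 20098 to 65868 in TAC-Veh. Dcn ranged over 13150 to 14989 in Sham-Veh and 26028 to 34032.5 in TAC-Veh. Col1a1 and Lum were also above Sham-Veh in each TAC-Veh library, whereas Pdgfra and Tcf21 overlapped between these groups. With TAC 4 of the 6 were higher and none lower, where 21.4% of all tested genes were higher. With THZ1 in TAC 4 were lower and none higher, beside 14.2% of all tested genes lower. The 6 macrophage markers (Emr1, Csf1r, Cd68, Fcgr1, C1qa and Mrc1) summed to 4219 to 5043 in Sham-Veh, 4058 to 4925 in Sham-THZ1, 5929 to 7521 in TAC-Veh and 4199.8 to 8026 in TAC-THZ1, with 3 higher with TAC and none changed with THZ1 in TAC. No marker of either list was at 0 in all libraries of a group, and the part of these cells in the values of Pde1a and Pde9a was not tested.

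**Figure D3:**
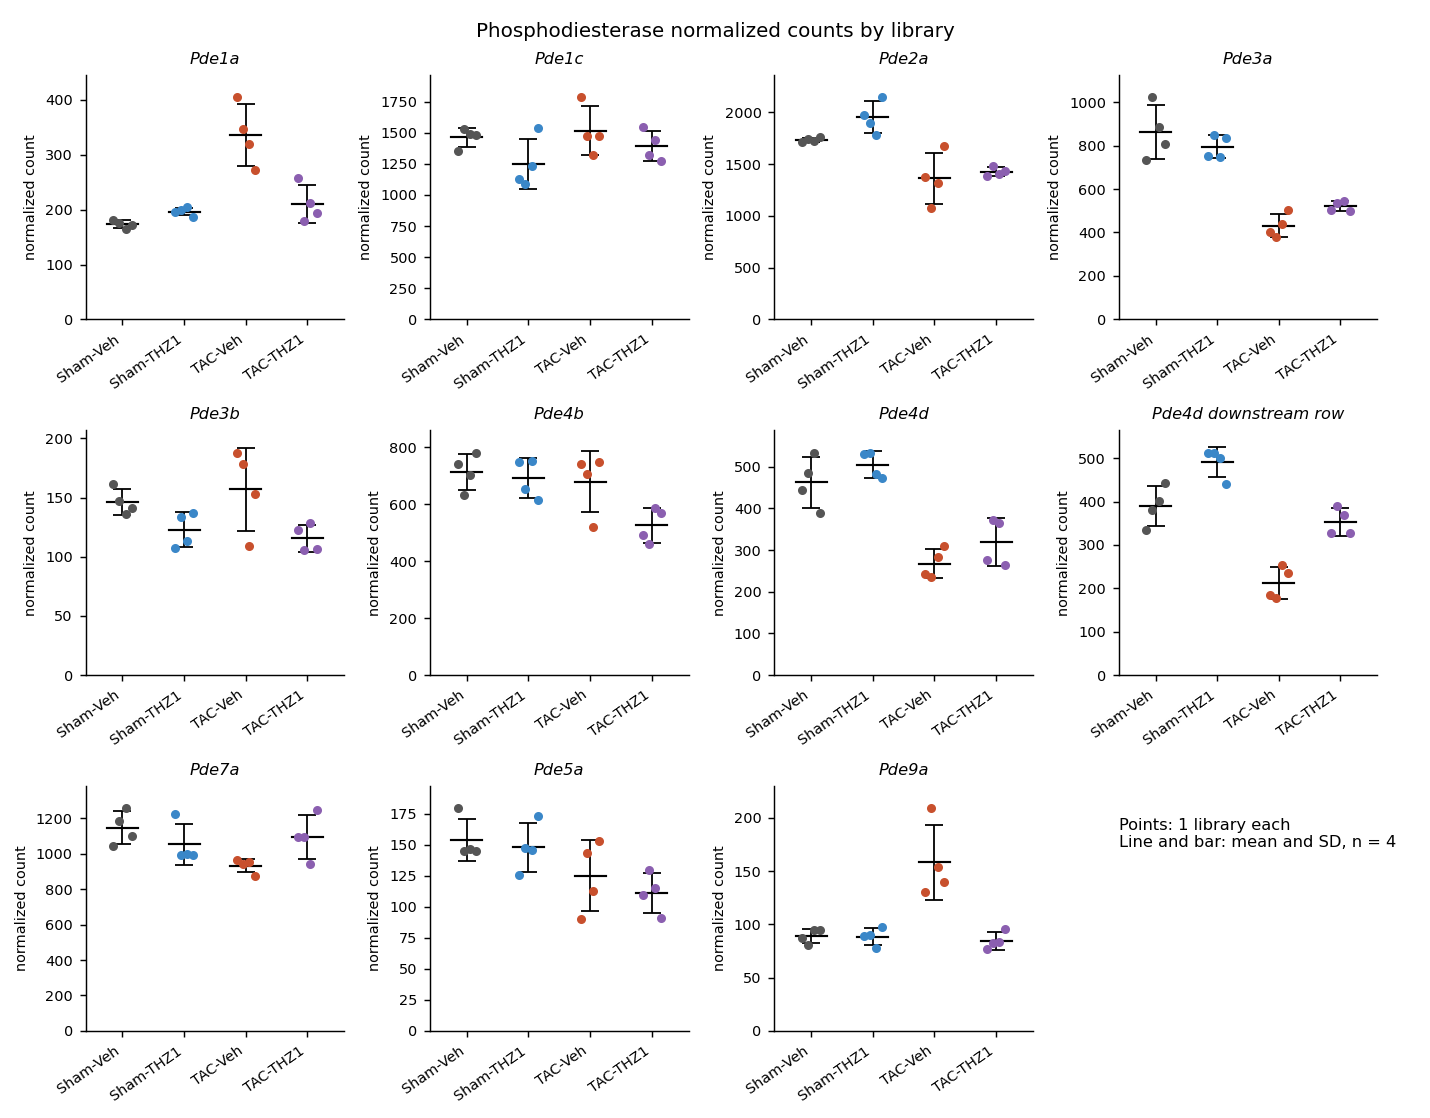
Normalized counts (linear axes from 0) of the 11 phosphodiesterase rows in the 4 groups, with 1 point per library and the mean and SD of 4 libraries in black. The TAC-Veh points of Pde1a (272 to 406) and Pde9a (131 to 209) sit above those of every other group, and both TAC groups of Pde3a (380.4 to 545) sit below the sham groups.

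Pde3a encodes the cyclic GMP-inhibited enzyme that breaks down cyclic AMP near the sarcoplasmic reticulum and is the target of milrinone-type drugs, and lies at chr6:141197790-141447872 on the plus strand (ENSMUSG00000041741.7). Its normalized counts were 734, 1024, 885 and 808 in Sham-Veh, 753, 849.5, 745 and 835 in Sham-THZ1, 403, 380.4, 437 and 504 in TAC-Veh and 505, 533, 545 and 497 in TAC-THZ1. All 8 TAC libraries lay below all 8 sham libraries. The gene fell by 49.9% with TAC (-0.996, SE 0.099, adjusted p = 1.58e-06). With THZ1 in TAC it rose 1.21-fold (0.28, SE 0.099, adjusted p = 0.0455), with overlapping groups, and it was lower in TAC-THZ1 than in Sham-THZ1 (-0.61, SE 0.099, adjusted p = 0.00105). The call of that rise was kept without Sham-Veh replicate 1 or 2 or TAC-Veh replicate 4 and lost without any other single library, at adjusted p-values of 0.0532 to 0.144, and over all alternatives its adjusted p was 0.0119 to 0.257. The interaction was 0.39, SE 0.14, adjusted p = 0.0895, and without TAC-Veh replicate 4 its adjusted p was 0.0318 (range over the alternatives 0.0318 to 0.178).

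Pde4d encodes a cyclic AMP-specific enzyme of many isoforms that is tethered to calcium handling proteins in cardiomyocytes. Its main row lies at chr13:109240142-110743669 on the plus strand (ENSMUSG00000021699.10), and a second row of the same name, with 1 annotated transcript, at chr13:110744317-110746171 on the plus strand (ENSMUSG00000074661.2), beginning after a gap of 647 bases. Counts of the main row were 443, 486, 533 and 389 in Sham-Veh, 531, 534, 483 and 472 in Sham-THZ1, 242, 237, 283 and 309 in TAC-Veh and 275, 373, 366 and 265 in TAC-THZ1. The counts of the downstream row were 334, 381, 402 and 443 in Sham-Veh, 513, 512, 501 and 439.7 in Sham-THZ1, 185, 177, 254 and 234 in TAC-Veh and 327, 391, 369 and 328 in TAC-THZ1. In both rows each TAC-Veh library was below each sham library. The main row fell by 42.03% with TAC (-0.79, SE 0.13, adjusted p = 0.000121) and the downstream row by 45.8% (-0.88, SE 0.12, adjusted p = 2.05e-05).

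With THZ1 in TAC the 2 Pde4d rows gave unlike values. The downstream row rose 1.67-fold (0.74, SE 0.12, adjusted p = 0.000346) with no overlap between groups, whereas the main row gave 0.25, SE 0.13, adjusted p = 0.152, with overlap. When the 2 rows were summed, an alternative chosen after seeing the data, the change was 0.49 with an adjusted p of 0.00295, while the main row alone passed in none of 29 other alternatives (adjusted p 0.0707 to 0.554). Both rows were lower in TAC-THZ1 than in Sham-THZ1, at log2 fold changes of -0.67 (adjusted p = 0.00226) and -0.48 (adjusted p = 0.00911). The interaction was 0.11, SE 0.18, adjusted p = 0.731 in the main row and 0.41, SE 0.16, adjusted p = 0.122 in the downstream row, where it passed without TAC-Veh replicate 3 (adjusted p = 0.0359, range over the alternatives 0.0359 to 0.232).

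The reads of the downstream row per read of the main row, a ratio that no scaling between libraries can change, were 0.754, 0.784, 0.755 and 1.14 in Sham-Veh, 0.966, 0.958, 1.04 and 0.931 in Sham-THZ1, 0.762, 0.749, 0.895 and 0.758 in TAC-Veh and 1.19, 1.05, 1.01 and 1.24 in TAC-THZ1. Each TAC-THZ1 library was above each TAC-Veh library, and the Sham-Veh group held a single high library, replicate 4. The geometric means were 1.12 in TAC-THZ1 and 0.789 in TAC-Veh, a log2 difference of 0.50. An exact two-sided permutation test of the 4 against 4 libraries gave p = 0.0286, the smallest it can give, and 0.114 after Benjamini-Hochberg adjustment over 4 comparisons. The exact permutation p was 0.629 for TAC-Veh against Sham-Veh, 0.171 for Sham-THZ1 against Sham-Veh and 0.0571 for TAC-THZ1 against Sham-THZ1. This ratio was chosen after its values were seen, and the part in it of differences between libraries other than scaling was not tested.

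**Figure D4:**
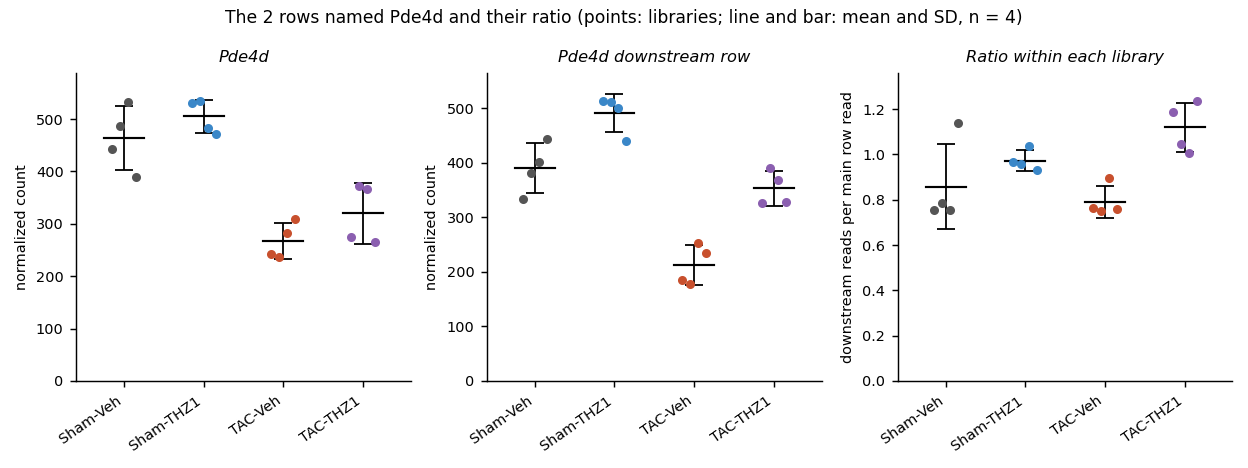
Normalized counts of the main and the downstream Pde4d row and the ratio of downstream to main reads within each library, by group, with 1 point per library and the mean and SD of 4 libraries in black. The ratio was 0.749 to 0.895 in TAC-Veh and 1.01 to 1.24 in TAC-THZ1.

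Pde2a, the cyclic GMP-stimulated enzyme through which cyclic GMP can lower cyclic AMP, lies at chr7:108570212-108661340 on the plus strand (ENSMUSG00000030653.9). Its normalized counts were 1717, 1741, 1719.7 and 1764 in Sham-Veh, 1980.0, 1895, 1784 and 2152 in Sham-THZ1, 1380.3, 1080.4, 1318 and 1677 in TAC-Veh and 1385, 1484, 1410.2 and 1435 in TAC-THZ1. Every TAC-Veh library was below the narrow Sham-Veh range, although replicate 4 only by a small step. The gene fell by 22.3% with TAC (-0.36, SE 0.095, adjusted p = 0.0054), and THZ1 in TAC gave 0.084 (95% interval -0.12 to 0.29), which did not pass. THZ1 in sham gave 0.17, SE 0.095, adjusted p = 0.792, although each Sham-THZ1 library was above each Sham-Veh library. Pde2a was lower in TAC-THZ1 than in Sham-THZ1 (-0.45, SE 0.095, adjusted p = 0.00442) without overlap. The 6 endothelial markers (Pecam1, Cdh5, Kdr, Tie1, Egfl7 and Emcn), cells in which Pde2a is known to be expressed, summed to 19518 to 21424 in Sham-Veh, 21569 to 22994 in Sham-THZ1, 17722 to 22273 in TAC-Veh and 16800.3 to 18172 in TAC-THZ1. With TAC 2 of them were higher and 2 lower, and under THZ1 TAC gave 2 higher and 3 lower. The shares of all tested genes were 21.4% and 23.6% with TAC, and 11.4% and 12.8% for TAC under THZ1. No endothelial marker was at 0 in all libraries of a group, and their part in the Pde2a values was not tested.

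Pde7a, an enzyme specific for cyclic AMP, lies at chr3:19123108-19211322 on the minus strand (ENSMUSG00000069094.6). Its normalized counts were 1044, 1183, 1255 and 1097 in Sham-Veh, 1225, 991, 999 and 995 in Sham-THZ1, 964, 939, 950.1 and 876 in TAC-Veh and 1093, 1095, 939 and 1248 in TAC-THZ1. The TAC-Veh libraries lay together below the Sham-Veh range, and the TAC-THZ1 libraries spread across both. The gene fell by 18.4% with TAC (-0.29, SE 0.089, adjusted p = 0.0134). THZ1 in TAC gave 0.22, SE 0.089, adjusted p = 0.0684, which passed without Sham-THZ1 replicate 1 (0.048) or TAC-THZ1 replicate 3 (0.0198; range over the alternatives 0.0198 to 0.208). The interaction was 0.35, SE 0.13, adjusted p = 0.0873, and it passed without the same libraries (0.0473 and 0.0361; range 0.0361 to 0.168).

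Pde3b and Pde4b fell with THZ1 in TAC and did not pass the test with TAC. Pde3b, the PDE3 enzyme known for insulin signalling in fat and liver, lies at chr7:121558795-121682765 on the plus strand (ENSMUSG00000030671.8) and had normalized counts of 161, 147, 136 and 141 in Sham-Veh, 107, 134, 114 and 137 in Sham-THZ1, 188, 178, 109 and 153 in TAC-Veh and 122, 106, 129 and 107 in TAC-THZ1. TAC-Veh replicate 3 lay among the TAC-THZ1 libraries, so the groups overlapped. The change with THZ1 in TAC was -0.41, SE 0.15, adjusted p = 0.0437, with TAC 0.074 (95% interval -0.23 to 0.38) and with THZ1 in sham -0.26 (95% interval -0.56 to 0.054). The call with THZ1 remained without Sham-THZ1 replicate 1 or 4, TAC-Veh replicate 3 or TAC-THZ1 replicate 3, and was lost without any other single library (adjusted p 0.0503 to 0.132; range over all alternatives 0.0017 to 0.151). The adipocyte markers Adipoq, Plin1, Lep, Cidec and Ucp1 were all below the filter, and Fabp4, also an endothelial gene, set their summed level of 15813 to 19029 in Sham-Veh, 17335 to 19192 in Sham-THZ1, 14359 to 33672 in TAC-Veh and 12334 to 19323 in TAC-THZ1. Their part in the Pde3b values was not tested.

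Pde4b, a cyclic AMP-specific enzyme that is also known in immune cells, lies at chr4:101760148-102279864 on the plus strand (ENSMUSG00000028525.9). Its normalized counts were 743, 634, 701 and 781 in Sham-Veh, 748, 655, 753 and 614 in Sham-THZ1, 742, 706, 520.1 and 748 in TAC-Veh and 490.3, 459.6, 587 and 568 in TAC-THZ1. Of the TAC-Veh libraries 3 lay above all TAC-THZ1 libraries, and replicate 3 lay within them. With THZ1 in TAC the gene fell by 22.1% (-0.36, SE 0.12, adjusted p = 0.0289), and it was lower in TAC-THZ1 than in Sham-THZ1 (-0.40, SE 0.12, adjusted p = 0.0222), without overlap. TAC under vehicle gave -0.084 (95% interval -0.33 to 0.16) and the interaction -0.31, SE 0.16, adjusted p = 0.233, which passed without TAC-Veh replicate 3 (0.0357; range over the alternatives 0.0357 to 0.387). The fall with THZ1 was lost without TAC-Veh replicate 1, 2 or 4 or TAC-THZ1 replicate 1 or 2 (adjusted p 0.0648 to 0.0956; range over all alternatives 0.00169 to 0.15), and the difference from Sham-THZ1 without Sham-THZ1 replicate 1 or 3 or TAC-THZ1 replicate 1 or 2 (0.0574 to 0.0662; range 0.00502 to 0.0662). The lymphocyte markers Cd3e, Cd3g, Cd79a, Cd79b and Ms4a1 summed to 50.4 to 63.6 normalized counts in Sham-Veh, 32.2 to 49.3 in Sham-THZ1, 68.2 to 100.1 in TAC-Veh and 41.5 to 74.2 in TAC-THZ1. Of the 3 that passed the filter, Cd79a and Cd79b, B cell receptor subunits, were lower with THZ1 in TAC, beside 14.2% of all tested genes lower. The part of these markers in the Pde4b values was not tested.

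Pde1c and Pde5a passed in no comparison by limma. Pde1c, a PDE1 enzyme known in cardiomyocytes and located at chr6:56019815-56319628 on the minus strand (ENSMUSG00000004347.9), had normalized counts of 1354, 1534, 1488 and 1479 in Sham-Veh, 1132, 1086, 1235 and 1535 in Sham-THZ1, 1789, 1477, 1319.6 and 1475 in TAC-Veh and 1543, 1324, 1445 and 1277 in TAC-THZ1. All 4 groups overlapped, and the log2 fold change was 0.043 with TAC (95% interval -0.18 to 0.26) and -0.11 with THZ1 in TAC (-0.33 to 0.11). Pde5a, the cyclic GMP-specific enzyme that sildenafil inhibits, at chr3:122432076-122562292 on the plus strand (ENSMUSG00000053965.5), had normalized counts of 179, 145, 147 and 145 in Sham-Veh, 125, 147, 146 and 173 in Sham-THZ1, 90.5, 143, 113 and 153 in TAC-Veh and 109, 129.8, 115 and 91.05 in TAC-THZ1. Its libraries overlapped between the groups of each comparison, although each TAC-THZ1 library was below each Sham-Veh library. TAC gave -0.32, SE 0.16, adjusted p = 0.105, and TAC-THZ1 against Sham-THZ1 gave -0.41, SE 0.16, adjusted p = 0.0678. The first passed with quantile normalization (0.0361) and without TAC-Veh replicate 4 (0.0352; range over the alternatives 0.0352 to 0.327), and the second with quantile normalization (0.0312), with the 2 groups fitted alone (0.0362), with array weights (0.0119) and without TAC-Veh replicate 1 (0.0272) or TAC-THZ1 replicate 2 (0.0449; range 0.0119 to 0.185). The 6 smooth muscle and pericyte markers (Myh11, Acta2, Tagln, Cnn1, Rgs5 and Kcnj8) summed to 19666 to 22558 in Sham-Veh, 21380.4 to 22427 in Sham-THZ1, 15517 to 21326 in TAC-Veh and 15935 to 16545 in TAC-THZ1. With TAC 1 of the 6 was higher and 3 lower, where 21.4% of all tested genes were higher and 23.6% lower. Under THZ1, TAC gave 0 higher and 2 lower, beside 11.4% and 12.8% of all tested genes. None of the 6 markers was at 0 in all libraries of a group, and their part in the Pde5a values was not tested.

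THZ1 in sham hearts changed none of the 11 rows by limma, where 0.0225% of tested genes were higher and 0.045% lower. The unadjusted p was under 0.05 for 2 rows, the downstream Pde4d row (0.34, SE 0.12, adjusted p = 0.625) and Pde1c (-0.24, SE 0.11, adjusted p = 0.692), and edgeR and DESeq2 also called 0. The downstream Pde4d row was called when the 2 groups were fitted alone (adjusted p = 0.0404) and with array weights (0.024; range over the alternatives 0.024 to 1). Under THZ1, TAC against sham left 5 rows lower and 0 higher, with 12.8% of tested genes lower and 11.4% higher. The 5 were Pde3a, both Pde4d rows, Pde2a and Pde4b. For Pde1a and Pde9a, TAC minus sham was 0.94 and 0.80 under vehicle and 0.085 and -0.066 under THZ1, and the interaction above is the test of that difference.

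Of 11 other phosphodiesterase genes, 8 passed the filter, and with TAC 2 were higher and 3 lower, where 21.4% of all tested genes were higher and 23.6% lower. Pde4a and Pde4c, cyclic AMP-specific enzymes of the same family as Pde4b and Pde4d, fell with TAC (-1.16, SE 0.18, adjusted p = 0.000108; -1.002, SE 0.16, adjusted p = 9.82e-05) and rose with THZ1 in TAC (0.72, SE 0.18, adjusted p = 0.00805; 0.94, SE 0.16, adjusted p = 0.000585). Pde4a counts were 1799, 1725, 1846 and 2077 in Sham-Veh, 499.7, 754, 1025 and 1227 in TAC-Veh and 1278, 1492, 1473 and 1249 in TAC-THZ1, with no overlap among the 3 groups. Pde4c averaged 254 ± 21.00 (SD, n = 4) in Sham-Veh, 130.2 ± 35.7 in TAC-Veh and 243 ± 21.6 in TAC-THZ1, and its interaction passed (0.85, SE 0.22, adjusted p = 0.0255). Thus Pde4a, Pde4c and Pde4d fell with TAC, and Pde4b, at -0.084, did not pass.

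Pde8a, a high-affinity cyclic AMP enzyme, rose with TAC (0.57, SE 0.083, adjusted p = 4.77e-05) and was higher in TAC-THZ1 than in Sham-THZ1 (0.43, SE 0.083, adjusted p = 0.00261), while THZ1 in TAC gave -0.087 (95% interval -0.26 to 0.088). Pde8b fell with TAC (-0.48, SE 0.14, adjusted p = 0.00938) and rose with THZ1 in TAC (0.46, SE 0.14, adjusted p = 0.0208). Pde1b, a calcium- and calmodulin-activated enzyme like Pde1a, rose with TAC (0.64, SE 0.21, adjusted p = 0.0191), with 1 high TAC-Veh library at 139. Pde10a fell with THZ1 in TAC (-0.46, SE 0.13, adjusted p = 0.0133). Pde7b and Pde11a passed in no comparison, at 0.11, SE 0.16, adjusted p = 0.594 for Pde7b and -0.83, SE 0.34, adjusted p = 0.0562 for Pde11a with TAC. Pde6a, Pde6b and Pde6c, the photoreceptor enzymes, were under the filter, at 0 to 2.03 normalized counts in every library, and a count of 0 allows up to 3 reads.

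**Figure D5:**
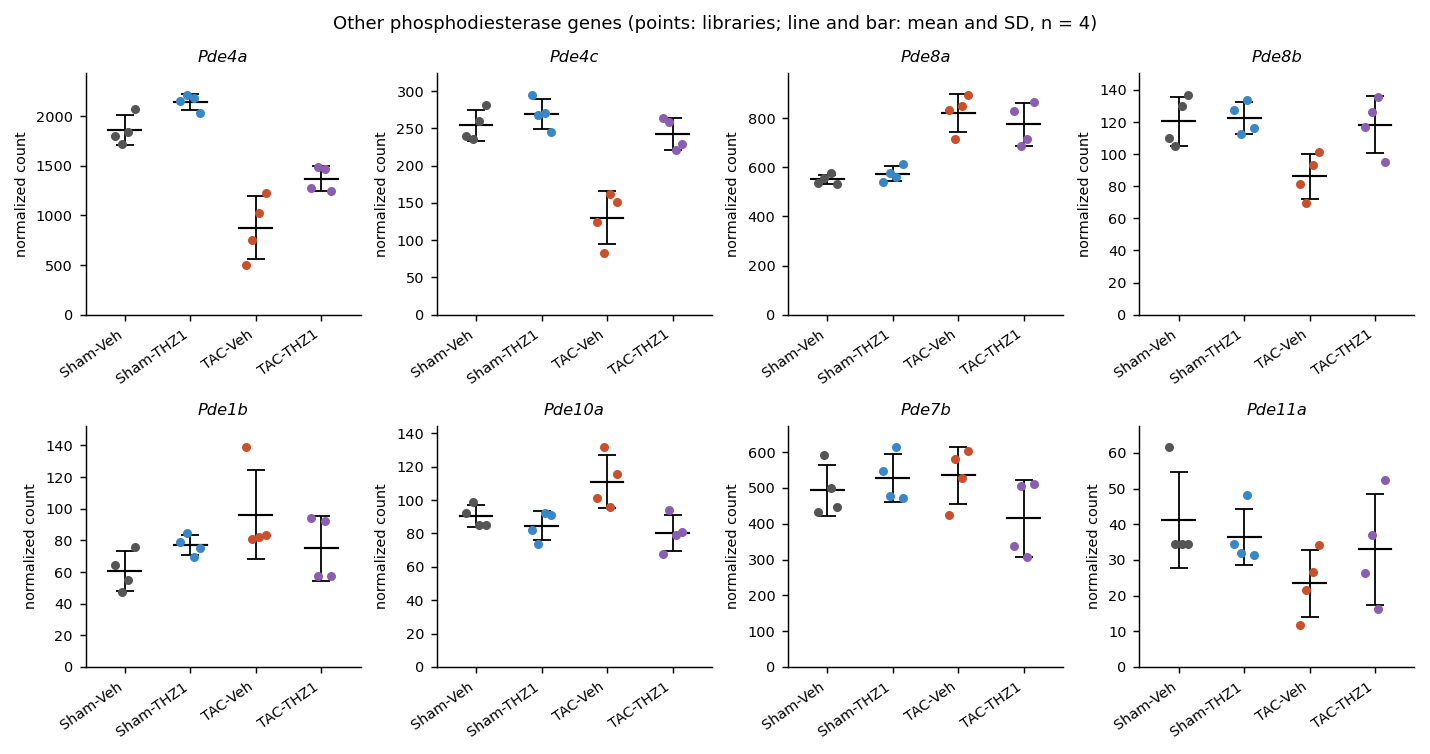
Normalized counts (linear axes from 0) of the 8 other phosphodiesterase genes that passed the filter, by group, with 1 point per library and the mean and SD of 4 libraries in black. Pde4a (499.7 to 1227 in TAC-Veh) and Pde4c (82.2 to 162) lay lowest in TAC-Veh, and Pde8a (714 to 894) lay above both sham groups.

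The genes whose pattern over the 16 libraries was most like that of a phosphodiesterase were found among 10317 genes that averaged at least 100 normalized counts, by the root mean square (RMS) difference of centred log2 values. For Pde1a they were Vat1 and Sfxn3, at RMS differences of 0.1102 and 0.113, where the RMS of Pde1a around its own mean was 0.383. For Pde9a they were Lrrk1 and Arhgef40 (0.141 and 0.147), for Pde3a Dsc2 and Stat5a, both at 0.131, and for the main Pde4d row Dot1l and Smtn (0.147 and 0.151). The nearest gene to the downstream Pde4d row was Adcy6 (0.1102), a cardiac adenylyl cyclase, followed by 1300001I01Rik (0.128). The nearest to Pde2a were Paxip1 and Mark4 (0.094 and 0.0961, own RMS 0.247). Nup85 and B3gnt1 were nearest to Pde7a (0.0967 and 0.0978, own RMS 0.157), and Mast4 and Ski to Pde4b (0.109 and 0.114, own RMS 0.234). These values describe the libraries, which share depth and group.

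The wider cyclic nucleotide pathway was followed through a list of 68 genes, of which 63 passed the filter. With TAC 8 were higher and 22 lower, at a median log2 fold change of -0.18, and with THZ1 in TAC 11 were higher and 11 lower, at a median of 0.031. Of all tested genes 21.4% were higher and 23.6% lower with TAC, and 15.1% and 14.2% with THZ1 in TAC, shares near those of the pathway genes for THZ1. TAC under THZ1 gave 7 higher and 14 lower, the interaction 2 and 3, and THZ1 in sham 0 by limma, edgeR and DESeq2, with 10 at an unadjusted p under 0.05. The shares of all tested genes were 11.4% and 12.8% for TAC under THZ1 and 4.4% and 5.62% for the interaction. Leaving out each library in turn gave 10 to 27 genes for TAC under THZ1, with 10 to 13 without any 1 of the Sham-THZ1 libraries or without TAC-THZ1 replicate 1 or 4, and 2 to 15 for the interaction, with 2 without Sham-THZ1 replicate 1 or TAC-THZ1 replicate 2, 3 without Sham-Veh replicate 2 or 3 or Sham-THZ1 replicate 4, 12 without TAC-Veh replicate 4 and 15 without TAC-Veh replicate 3.

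Cyclases that make cyclic AMP moved in both directions. Of 8 adenylyl cyclases tested, 1 was higher and 4 lower with TAC, where 21.4% of all tested genes were higher and 23.6% lower. Adcy6, a main cardiomyocyte isoform, averaged 6046 ± 641 (SD, n = 4) in Sham-Veh, 3204 ± 701 in TAC-Veh and 5367 ± 613 in TAC-THZ1. It fell with TAC (-0.94, SE 0.12, adjusted p = 2.28e-05) and rose with THZ1 (0.76, SE 0.12, adjusted p = 0.000488). Adcy7, an isoform known in blood cells, went the other way, at 489 ± 69.3, 1646 ± 426 and 624 ± 122, and rose with TAC (1.72, SE 0.17, adjusted p = 1.22e-06) and fell with THZ1 (-1.38, SE 0.17, adjusted p = 6.13e-05). Its interaction was -1.23, SE 0.24, adjusted p = 0.00595. Adcy8, calcium-stimulated, was at 20.2 to 27.4 normalized counts per Sham-Veh library, 0 to 9.37 in TAC-Veh and 6.51 to 17.8 in TAC-THZ1, and it fell with TAC and rose with THZ1 (adjusted p = 0.0002 and 0.00502). Gnai3, an inhibitory G protein subunit, rose with TAC (0.42, SE 0.083, adjusted p = 0.000744) and fell with THZ1 (-0.35, SE 0.083, adjusted p = 0.00569).

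Upstream of cyclic GMP, the natriuretic peptides Nppa and Nppb rose with TAC (4.76 and 2.46, both at an adjusted p of 3.75e-07) and fell with THZ1 (-1.83, adjusted p = 0.00297, and -0.87, adjusted p = 0.00529), while none of the 3 nitric oxide synthases passed in any of the 5 comparisons and 2 of 5 guanylyl cyclase genes were lower with TAC. Downstream, 1 of 9 protein kinase A genes, Prkar1a, a regulatory subunit, was higher with TAC (0.60, SE 0.15, adjusted p = 0.0034) and 5 were lower. These 9 include genes of kinase inhibitors as well as of kinase subunits. Of the 5 lower genes, Pkia and Pkig encode inhibitors, and the others were the subunit genes Prkaca, Prkacb and Prkar2a. For comparison, 21.4% of all tested genes were higher and 23.6% lower with TAC. Prkar1a fell with THZ1 (-0.62, SE 0.15, adjusted p = 0.00535), and Pkig, an inhibitor of the kinase, fell with TAC (-0.36, SE 0.084, adjusted p = 0.00262) and rose with THZ1 (0.43, SE 0.084, adjusted p = 0.00153). Popdc3, a Popeye protein that binds cyclic AMP, rose with TAC (0.997, SE 0.097, adjusted p = 1.26e-06) and fell with THZ1 (-0.43, SE 0.097, adjusted p = 0.0039).

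Of 11 anchoring protein genes, which hold protein kinase A and phosphodiesterases in place, none was higher and 3 were lower with TAC, where 23.6% of all tested genes were lower. Akap7 fell with TAC (-0.51, SE 0.089, adjusted p = 0.000269) and rose with THZ1 (0.40, SE 0.089, adjusted p = 0.00388), and so did Akap8 (-0.39, SE 0.054, adjusted p = 3.21e-05; 0.33, SE 0.054, adjusted p = 0.000488). Akap13 fell with THZ1 (-0.56, SE 0.10, adjusted p = 0.00114) and gave 0.027 with TAC. Interaction terms passed for Adcy7, Popdc3, Prkar1a, Pkig and Akap8. Of 3 CREB family factors (Creb1, Crem and Atf1) and 3 coactivators of them (Crtc1, Crtc2 and Crtc3), Crem was higher and Creb1, Crtc1 and Crtc3 lower with TAC, and Crem was lower with THZ1 in TAC.

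Of the 6 cardiomyocyte markers 1 was higher and 2 lower with TAC, and 3 were higher with THZ1 in TAC. The shares of all tested genes were 21.4% and 23.6% with TAC, and 15.1% higher with THZ1 in TAC. The summed level of the 6 markers was lower in each TAC-Veh library than in each Sham-Veh library. The same held for Pde2a, Pde3a, Pde4a, Pde4c, Pde7a, Pde8b, both Pde4d rows and, by a small step, Pde11a. The share of all tested genes for which this held was not counted, and the part of the marker sum in those values was not tested. Within this sum, Myh6 ranged over 468904 to 528707 in Sham-Veh and 162375 to 317577 in TAC-Veh. Ryr2 was also lower in each TAC-Veh library, Myh7 was higher, and Tnnt2, Actc1 and Myl2 overlapped between these groups. The 4 platelet markers (Pf4, Ppbp, Itga2b and Gp1bb) summed to 228 to 311 normalized counts in Sham-Veh, 245 to 328 in Sham-THZ1, 325 to 422 in TAC-Veh and 384 to 622 in TAC-THZ1, with 1 higher with TAC and 1 higher with THZ1 in TAC. Platelets are known to express Pde3a and Pde5a, and the part of this list in their values was not tested.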

How the data were processed

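RNA was sequenced from 16 mouse ventricle libraries prepared with a stranded mRNA kit. Per the submitters' processing notes, reads were aligned with TopHat2 2.1.1 to mm9, counted per gene with HTSeq and normalized with DESeq2. The deposited table holds the resulting signal, gene counts that the authors divided by a size factor per library, and since its values were whole multiples of 1 step per library, reads could be recovered (100% of values whole within 0.001). Gene names and positions came from the mm9 annotation of the table, which matched all 22372 rows.

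Genes with at least 10 normalized counts in at least 4 libraries were tested (13331) on log2(normalized count + 1), a scale that understates changes of low genes, by limma 3.58.1 (R 4.3.3) with 4 group means, trended variance and p-values adjusted by Benjamini-Hochberg. A call is an adjusted p under 0.05. Alternatives used edgeR 4.0.16 and DESeq2 1.42.0 on recovered reads, other pseudocounts, filters, scalings and weights, and each library left out. edgeR called 6067 genes with TAC and 3981 with THZ1 in TAC, against 6003 and 3918 by limma. The fit was tested on simulated data that gave every gene the same dispersion and changed few genes. These settings differ from the data here, so its error rates in these libraries were not measured. Intervals and limits cover counting error or the spread between libraries only. The study's methods set the counting to the reverse strand, and reads in genes that overlap on the same strand could not be told apart.

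All 10 phosphodiesterases were named in each comparison, the other phosphodiesterases past the filter, at most 12 pathway genes called with THZ1 in TAC or in the interaction by smallest adjusted p, and the 2 most alike genes for each called row. Outside this rule, the CREB family factors, their coactivators and the other protein kinase A genes lower with TAC were also named. The genes most alike to Pde3b and 1 lymphocyte marker are not reported here. Members and lists were chosen with earlier results of these data known. The summed Pde4d rows, the study's fold thresholds and the Pde4d ratio were added after seeing the data.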

Additional observations from a re-analysis of the deposited data

Results flagged for a closer look

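Single libraries stood apart from the other 3 of their group in 8 of 128 groups examined, by a gap above Dixon's 95% critical value for 4 samples, and chance flags about 1 in 20. Sham-Veh replicate 4 had a ratio of downstream to main Pde4d reads of 1.14, where the next library had 0.784. TAC-Veh replicate 3 had a ratio of 0.895, where the next had 0.762. The downstream Pde4d row was lowest in Sham-THZ1 replicate 4, at 439.7 normalized counts against 501 in the next library. Pde7a reached 1225 in Sham-THZ1 replicate 1, against 999 in the next. Pde5a was 179 in Sham-Veh replicate 1, against 147 in the next. Pde1b was 139 in TAC-Veh replicate 1, against 83.5 in the next, and Pde11a was 61.5 in Sham-Veh replicate 1, against 34.5 in the next. Akap8 was 1726 in Sham-THZ1 replicate 2, with the next at 1706, in a group that spanned a narrow range.

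The change with THZ1 differed between TAC and sham hearts by the limma interaction term for 8 genes, 2 phosphodiesterases of the 10, 1 of the 8 others and 5 of the 63 pathway genes, a term that 4.4% of all tested genes passed upward and 5.62% downward. It was -0.85 on the log2 scale for Pde1a (adjusted p = 0.0067), -0.87 for Pde9a (adjusted p = 0.0121) and 0.85 for Pde4c (adjusted p = 0.0255). Among pathway genes it was -1.23 for Adcy7 (adjusted p = 0.00595), -0.67 for Prkar1a (adjusted p = 0.0499), 0.46 for Pkig (adjusted p = 0.0245), -0.56 for Popdc3 (adjusted p = 0.0192) and 0.29 for Akap8 (adjusted p = 0.0255).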

How the results depend on the processing

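The called changes of single phosphodiesterase rows kept their call in 248 refits under other settings and lost it in 12, kept it in 286 refits without 1 library and lost it in 34, and none turned its direction. The calls lost were those of Pde3a, Pde3b and Pde4b with THZ1 in TAC and of Pde4b for TAC-THZ1 against Sham-THZ1, given above with their ranges. The cause was not tested where a value below moved.

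With THZ1 in TAC, the count of called phosphodiesterase rows was 6, and 3 when the 2 groups were fitted alone, with array weights or at an adjusted p under 0.01. The pathway count was 22, and 8 when fitted alone, 12 with array weights and 13 at 0.01. For THZ1 in sham, the counts of 0 became 1 row and 5 pathway genes when fitted alone and 1 row and 6 pathway genes with array weights. For TAC-THZ1 against Sham-THZ1 the pathway count of 21 became 34 with array weights and 8 at 0.01. For the interaction, 2 rows became 1 at 0.01, and 5 pathway genes became 8 with array weights, 9 with DESeq2 and 1 at 0.01. Without 1 library, the called rows numbered 7 to 8 with TAC, 3 to 6 with THZ1 in TAC, 4 to 6 for TAC-THZ1 against Sham-THZ1 and 2 to 4 for the interaction, and the pathway genes 27 to 38, 16 to 26, 10 to 27 and 2 to 15.

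Changes that had not passed turned their sign near 0. With TAC, Pde1c was -0.016 with array weights and Pde3b -0.0010 with quantile normalization. For THZ1 in sham, Pde9a was 0.0010 with array weights and 0.00054 with DESeq2. Without 1 library, log2 fold changes with TAC ranged over -0.040 to 0.11 for Pde1c, -0.022 to 0.24 for Pde3b and -0.14 to 0.039 for Pde4b, with THZ1 in TAC over -0.022 to 0.19 for Pde2a, with THZ1 in sham over -0.10 to 0.0096 for Pde4b, -0.14 to 0.013 for Pde5a and -0.058 to 0.052 for Pde9a, for TAC-THZ1 against Sham-THZ1 over -0.016 to 0.16 for Pde1a and -0.012 to 0.13 for Pde7a, and for the interaction over -0.19 to 0.022 for Pde2a and -0.23 to 0.022 for Pde5a. With the longest transcript as length, the Sham-Veh shares were 7.51% for Pde1c, 18.7% for Pde2a, 9.30% for Pde3a, 1.01% for Pde3b, 7.55% for Pde4b, 6.39% for Pde4d and 8.25% for Pde7a.

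Same-numbered replicates of different groups did not deviate together (r over 0.1 in 2 of 24 pairs, median 0.021), so the number was not taken to pair samples. With the replicate block, 7, 5, 0, 5 and 2 rows were called with TAC, THZ1 in TAC, THZ1 in sham, TAC under THZ1 and the interaction, against 7, 6, 0, 5 and 2 without it, and the row lost was Pde3b (adjusted p = 0.0532).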
